A study of Homo sapiens with 10 samples.

Results

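Condensins are ring-shaped protein complexes that fold chromatin into the compact chromosomes of mitosis. The members described here are the 8 subunit genes of the human complexes: SMC2 and SMC4, which encode the ATPase core shared by condensin I and condensin II, NCAPH, NCAPD2 and NCAPG of condensin I, and NCAPH2, NCAPD3 and NCAPG2 of condensin II. A gene was taken as measured where a probe set of the array was annotated to its symbol and to no other. This held for 5 of the 8 genes (SMC2, NCAPH, NCAPH2, NCAPD3 and NCAPG2), out of 14232 genes and 21980 probe sets in the table. The probe sets of SMC4, NCAPD2 and NCAPG carry further symbols, so these 3 genes have no value below, and condensin I is represented by NCAPH alone. Each of the 5 measured genes had 1 probe set annotated to its symbol alone. NCAPH2 also had 1 that carries further symbols, which was not used for it.

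The samples were cultures of U2OS, a human osteosarcoma cell line, profiled on Affymetrix exon arrays summarised per gene. PD0332991 (palbociclib), which blocks the kinase partners of D-type cyclins, CDK4 and CDK6, was given for 4 h to 5 cultures, and the solvent DMSO to 5 others. All were plated at 25% density and grown for 30 h in medium with 10% serum beforehand. The labels state 1 mM PD0332991, an amount whose unit is doubtful because micromolar doses are usual, and they call the samples of each treatment biological replicates of this single line. By their array names the samples form array set 1 (6 arrays, replicates 1 to 3 of each treatment) and array set 2 (4 arrays, replicates 4 and 5 of each treatment).

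In each complex the SMC proteins form long coiled-coil arms with an ATPase head, the kleisin subunit (NCAPH or NCAPH2) closes the ring between the heads, and HEAT-repeat subunits (NCAPD2 and NCAPG, or NCAPD3 and NCAPG2) bind the kleisin and DNA. Condensin II is nuclear through interphase and starts chromosome folding in prophase, whereas condensin I reaches the chromosomes once the nuclear envelope has broken down. Condensin genes are expressed mostly in proliferating cells, and many genes of this kind are repressed through E2F sites or through the cell cycle genes homology region, CHR, when cells leave the cycle.

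The start regions of the genes are shown because such elements are among those through which cyclin D-dependent kinases are known to reach cell cycle genes. RefSeq promoter windows (assembly GRCh38.p14, 250 bases before and 50 bases after a gene start, which is base 251) were at hand for 7 of the 8 members, 10 windows in all, and NCAPH2 was not among them. The letters searched on either strand were TTTGAA and TTCGAA for CHR, CCAAT for the factor NF-Y, and TTTCGCGC, TTTGGCGC, TTTCCCGC and TTTGCCGC for E2F. CHR letters were found in 6 of the 10 windows, in SMC2, SMC4, NCAPD2, NCAPG, NCAPD3 and NCAPG2, and in 16.4% of all 35116 windows. CCAAT was found in 3 of the 10, in NCAPH, NCAPD2 and NCAPD3, and in 34.6% of all windows. E2F letters were found in 1 of the 10, in NCAPD3, and in 3.31% of all windows. The NCAPD3 window holds all 3 kinds: TTTCCCGC on the reverse strand at bases 2 to 9, CCAAT on the reverse strand at bases 141 to 145 and 206 to 210, and TTTGAA across the gene start at bases 248 to 253. TTTGAA also lies across the gene start of SMC2 (reverse strand, bases 248 to 253) and past that of NCAPG2 (bases 286 to 291), and NCAPH has CCAAT at bases 139 to 143. Such a match describes letters and does not show that a factor binds. Below, a window of each measured gene except NCAPH2 is written 5′ to 3′ on the gene's strand with the matched letters in capitals. For SMC2 and NCAPD3, which have a second window without a match, the window with a match is given. The windows written lie at chr11:134223918-134224217 on the minus strand (NCAPD3), chr9:104094059-104094358 on the plus strand (SMC2), chr7:158704755-158705054 on the minus strand (NCAPG2) and chr2:96335516-96335815 on the plus strand (NCAPH).
NCAPD3: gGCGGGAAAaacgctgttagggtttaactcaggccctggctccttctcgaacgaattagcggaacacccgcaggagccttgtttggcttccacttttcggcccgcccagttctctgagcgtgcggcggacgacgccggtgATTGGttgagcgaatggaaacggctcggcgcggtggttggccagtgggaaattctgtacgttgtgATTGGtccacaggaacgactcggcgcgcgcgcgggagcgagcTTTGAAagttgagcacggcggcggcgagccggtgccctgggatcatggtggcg
SMC2: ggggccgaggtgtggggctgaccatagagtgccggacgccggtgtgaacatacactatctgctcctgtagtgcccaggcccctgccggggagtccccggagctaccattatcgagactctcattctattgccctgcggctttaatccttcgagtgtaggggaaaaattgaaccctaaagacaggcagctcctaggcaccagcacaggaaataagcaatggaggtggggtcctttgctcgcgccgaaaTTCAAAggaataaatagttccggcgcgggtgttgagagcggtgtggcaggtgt
NCAPG2: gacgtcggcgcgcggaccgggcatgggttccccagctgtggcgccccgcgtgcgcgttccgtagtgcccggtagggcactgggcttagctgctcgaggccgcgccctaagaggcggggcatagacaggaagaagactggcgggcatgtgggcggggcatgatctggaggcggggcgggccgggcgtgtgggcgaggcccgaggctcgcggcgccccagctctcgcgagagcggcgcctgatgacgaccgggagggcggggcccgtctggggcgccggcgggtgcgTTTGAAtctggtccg
NCAPH: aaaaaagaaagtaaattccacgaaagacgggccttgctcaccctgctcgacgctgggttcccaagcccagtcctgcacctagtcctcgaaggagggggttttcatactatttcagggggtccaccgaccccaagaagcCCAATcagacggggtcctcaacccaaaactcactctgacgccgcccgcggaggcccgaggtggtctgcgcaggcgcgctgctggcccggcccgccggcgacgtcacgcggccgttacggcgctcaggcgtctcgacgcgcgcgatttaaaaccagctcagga

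As a check of the cells, the osteoblast and mesenchymal genes COL1A1, SPARC and VIM were brighter than 97.5% to 98.0% of probe sets, while RUNX2, COL1A2 and ALPL stood at 59.8%, 43.2% and 38.6% (6 of 6 listed markers measured). Of the blood genes (3 of 4 measured) PTPRC stood at 9.0%, CD3E at 21.7% and CD14 at 45.8%. Of the epithelial genes (3 of 4 measured) CDH1 stood at 29.0%, EPCAM at 32.1% and CLDN4 at 52.8%. The scale is coarse because probe sets differ in brightness. All 16 measured genes of an 18-gene list of E2F and G1/S genes were lower with PD0332991, where 55.2% of all probe sets were. Their median log2 fold change was -0.47, against -0.02 over all probe sets. At an adjusted p under 0.05 in limma 5 of the 16 passed, where 0.050% of all probe sets did. The list was known to respond on these arrays when it was chosen, so these values describe the treatment and are no independent check of it. DMSO replicate 1 stood apart. Its mean correlation with the other arrays was 0.963, against 0.979 to 0.984 for the other 9, and its interquartile range was 3.18, against 3.32 to 3.68.

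No condensin gene passed the test for a treatment difference. With limma across all 21980 probe sets, array set as a covariate and an adjusted p under 0.05 as the threshold, 0 of the 5 measured members were called, where 0.050% of all probe sets (11, of which 9 lower) were. At an unadjusted p under 0.05, 1 of the 5 stood out, NCAPD3, where 4.17% of all probe sets did. The log2 differences, PD0332991 minus DMSO, were negative for all 5, with 3 of them below -0.1 and 2 within 0.01 of 0; over all probe sets 55.2% were negative. The median of the 5 was -0.14, against -0.02 over all probe sets. The treated and control arrays overlapped for each of the 5, whereas 0.773% of all probe sets had no overlap. In RNA from whole cultures, fewer cells at a cycle stage that expresses a gene and less of its RNA per cell cannot be told apart.

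**Figure D1:**
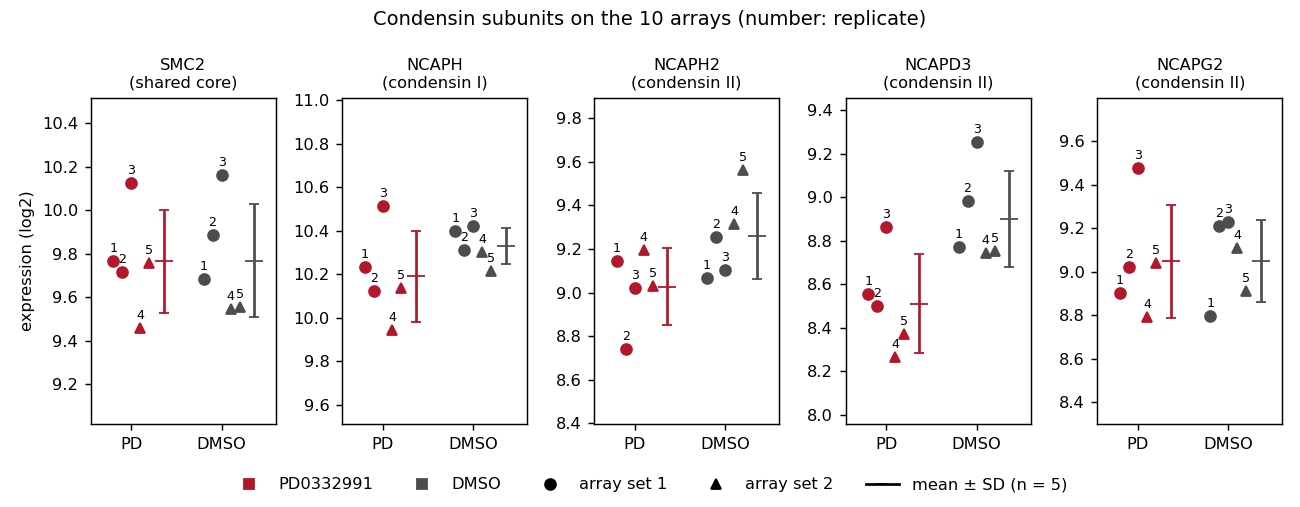
Expression (log2) of the 5 measured condensin genes on each array, PD0332991 left and DMSO right, numbered by replicate, circles for array set 1 and triangles for array set 2, with mean ± SD (n = 5). NCAPD3 has 4 of 5 treated arrays below every DMSO array, SMC2 and NCAPG2 have nearly equal means in both treatments, and every panel spans 1.5 on the log2 scale.

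NCAPD3, a HEAT-repeat subunit of condensin II, had the largest difference among the members. Its log2 values in replicates 1 to 5 were 8.55, 8.50, 8.86, 8.26 and 8.37 with PD0332991, against 8.77, 8.98, 9.26, 8.75 and 8.75 in DMSO. Of the treated arrays, 4 lay below every DMSO array, and replicate 3, the highest treated array, lay above DMSO replicates 1, 4 and 5 and below replicates 2 and 3. The means were 8.51 ± 0.23 with PD0332991 and 8.90 ± 0.22 in DMSO (SD, n = 5 arrays each). The difference was -0.39 ± 0.12 (SE), a 1.31-fold lower level with a 95% confidence interval of 1.10 to 1.57, with an unadjusted p of 0.00716 and an adjusted p of 0.782 in limma. By p it ranked 198 among the 21980 probe sets. The difference was -0.36 in array set 1 and -0.43 in array set 2.

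The remaining condensin II subunits, NCAPH2 and NCAPG2, had unlike values. NCAPH2, the kleisin of condensin II, had log2 values of 9.15, 8.74, 9.02, 9.20 and 9.03 in replicates 1 to 5 with PD0332991, against 9.07, 9.26, 9.11, 9.32 and 9.56 in DMSO. Treated replicates 2, 3 and 5 lay below every DMSO array and replicates 1 and 4 within the DMSO range. The difference was -0.23 (95% confidence interval -0.48 to 0.01; 1.18-fold lower), with an unadjusted p of 0.0584 and an adjusted p of 1.00 in limma.

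NCAPG2, the other HEAT-repeat subunit of condensin II, had log2 values of 8.90, 9.02, 9.48, 8.79 and 9.04 with PD0332991, against 8.79, 9.21, 9.23, 9.11 and 8.91 in DMSO. The DMSO range lay within the treated range, and the highest array was treated replicate 3. Its difference was -0.0024, with a 95% confidence interval of -0.32 to 0.31, or 0.803 to 1.24 times the DMSO level (limma adjusted p = 1.00).

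SMC2, the ATPase arm common to the complexes, likewise had no measurable difference. Its log2 values were 9.77, 9.72, 10.12, 9.46 and 9.75 in replicates 1 to 5 with PD0332991, against 9.68, 9.89, 10.16, 9.55 and 9.56 in DMSO. The highest array of each treatment was replicate 3, and the ranges overlapped over most of their length. The means were 9.76 ± 0.24 with PD0332991 and 9.77 ± 0.26 in DMSO (SD, n = 5 each), and the 95% confidence interval of the difference was -0.28 to 0.28, or 0.822 to 1.21 times the DMSO level (limma adjusted p = 1.00).

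NCAPH, the kleisin of condensin I, had log2 values of 10.24, 10.12, 10.51, 9.94 and 10.14 with PD0332991, against 10.40, 10.31, 10.42, 10.30 and 10.21 in DMSO. Treated replicates 2, 4 and 5 were below every DMSO array, replicate 1 was within the DMSO range, and replicate 3 was above it. The treated arrays were also spread more widely, at 10.19 ± 0.21 with PD0332991 and 10.33 ± 0.08 in DMSO (SD, n = 5 each). The difference was -0.14 (95% confidence interval -0.37 to 0.09), with an unadjusted p of 0.201 and an adjusted p of 1.00 in limma.

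The standard errors of the members' differences ran from 0.10 to 0.14, where the median over all probe sets was 0.14. The treatment difference was not shown to vary between the array sets: the interaction of treatment and array set had an adjusted p of 1.00 in limma for each of the 5, with estimates (set 2 minus set 1) of 0.10 for SMC2, -0.13 for NCAPH, -0.15 for NCAPH2, -0.07 for NCAPD3 and -0.15 for NCAPG2. The narrowest of the 5 upper 95% limits was 0.36 and the narrowest of the lower limits -0.52, so these arrays bound an interaction only loosely.

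**Figure D2:**
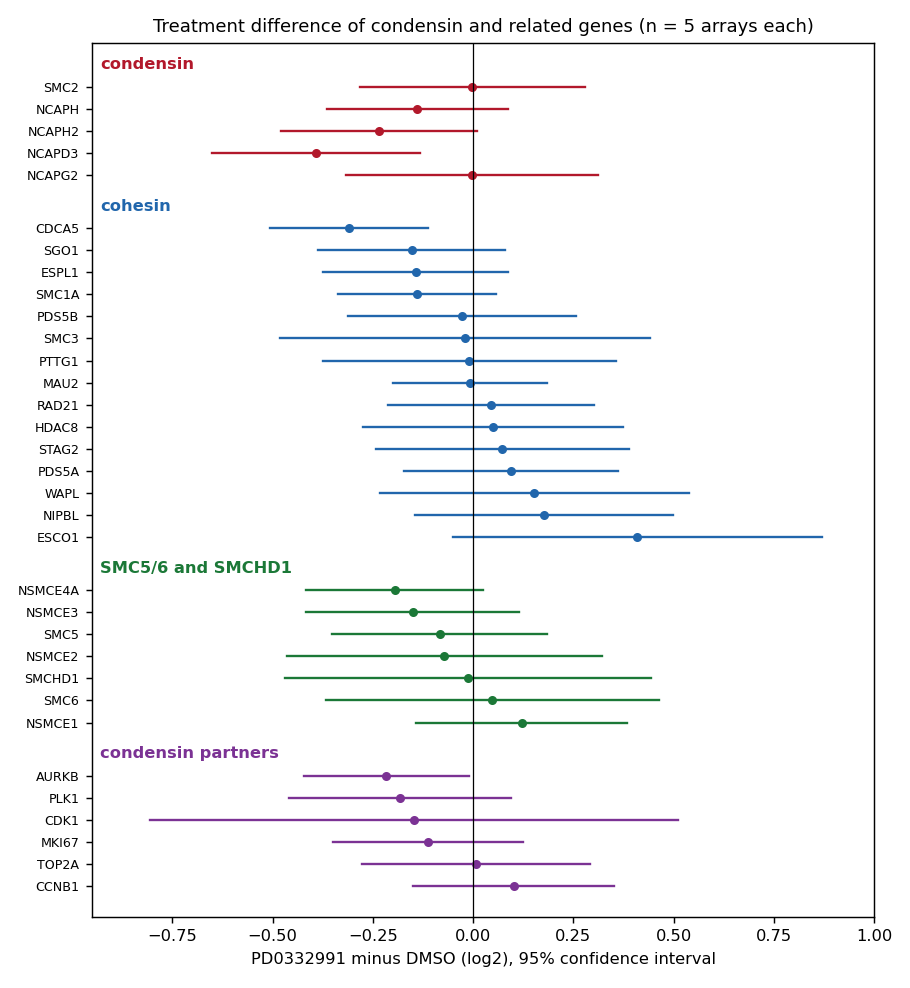
PD0332991 minus DMSO (log2, points) with 95% confidence intervals from limma for the 5 condensin genes, 15 cohesin genes, 7 genes of SMC5/6 and SMCHD1, and 6 condensin partners, 5 arrays per treatment. Among the condensin genes the interval of NCAPD3 alone lies below 0 throughout, and no gene in the plot passed the adjusted threshold.

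Genes of related chromosome complexes gave no call either. Since 0.050% of all probe sets were called in limma, 0 calls in lists this short says little. Over all probe sets 4.17% had an unadjusted p under 0.05 in limma and 55.2% were lower. Of 15 measured cohesin genes, whose ring holds sister chromatids together, 8 were lower and 7 higher (median log2 fold change -0.01), with 0 past the adjusted threshold in limma (1 at an unadjusted p under 0.05). That gene was CDCA5, which encodes sororin, the protector of cohesion, at 9.47 ± 0.10 with PD0332991 and 9.77 ± 0.07 in DMSO (log2, SD, n = 5 each; difference -0.31 ± 0.09 SE, limma adjusted p = 0.701). The next were ESCO1, an acetyltransferase of the cohesin ring, at a log2 difference of 0.41 ± 0.21, and SMC1A, a cohesin ATPase arm, at -0.14 ± 0.09. The 7 genes of SMC5/6 and SMCHD1, whose SMC5/6 complex serves DNA repair, had 5 lower and 2 higher values, a median of -0.07 and 0 calls in limma, also at an unadjusted p under 0.05; NSMCE4A, its kleisin, was at -0.20, and NSMCE3 and NSMCE1, which bind that kleisin, were at -0.15 and 0.12. Of 10 listed partners of condensin, 6 were measured, 4 lower and 2 higher, with a median of -0.13 and 0 calls (1 at an unadjusted p under 0.05). These were AURKB, a kinase that promotes condensin I loading, at -0.22 ± 0.09, PLK1, which phosphorylates condensin II, at -0.18 ± 0.12, and MKI67, which coats mitotic chromosomes, at -0.11 ± 0.11 (SE, limma adjusted p = 1.00 for each).

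For comparison, the median over 17 measured G2/M genes was -0.06 on the log2 scale with 0 calls in limma, where 0.050% of all probe sets were called. At an unadjusted p under 0.05 in limma 1 of the 17 stood out, where 4.17% of all probe sets did. That gene was AURKB, at the value above, and the next was UBE2C, a ubiquitin-conjugating enzyme of mitotic exit, at -0.22. AURKB, PLK1 and CCNB1 are also among the condensin partners, so the G2/M list is not separate from that list. Among the 16 E2F and G1/S genes, the smallest p belonged to E2F2 (-1.01) and CCNE1 (-0.95), both past the threshold. The differences of NCAPD3 (-0.39), NCAPH2 (-0.23) and NCAPH (-0.14) lie between the medians of these lists, -0.06 and -0.47. Those of SMC2 and NCAPG2 lie above both. The E2F list was known to respond on these arrays when it was chosen, so its count is no independent evidence.

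Apart from treatment, SMC2, NCAPD3 and NCAPG2 varied together from array to array. Over all 10 arrays NCAPH followed them less closely, but not when DMSO replicate 1 was left out, as given below. After treatment and array set means were taken out, Pearson r over the 10 arrays was 0.93 for SMC2 with NCAPD3, 0.85 for NCAPD3 with NCAPG2, 0.82 for SMC2 with NCAPG2, and 0.65 to 0.69 for NCAPH with these 3. NCAPH2 did not share the pattern, with r of 0.01 to 0.18 to the others. Ranked among all 14231 other genes for likeness to SMC2, NCAPD3 was number 106, NCAPG2 number 875, NCAPH number 2384 and NCAPH2 number 5813. For likeness to NCAPD3, SMC2 was number 251, NCAPG2 number 1028, NCAPH number 2908 and NCAPH2 number 5210. Many other genes thus followed each of them more closely than most fellow subunits did. The values of 1 array share its RNA, labelling and normalization, so these correlations describe the arrays as well as the cells.

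The members were also compared with the spread of the arrays and with the cell cycle lists. The deposited values correlated with the interquartile range of the array at r = 0.88 for NCAPG2, 0.75 for SMC2, 0.42 for NCAPD3, 0.42 for NCAPH and -0.04 for NCAPH2 (10 arrays). Treatment and array set means were left in for these values, so they do not measure the shared pattern itself. The mean of the 17 G2/M genes, with treatment and array set means removed, correlated at 0.86 with SMC2, 0.84 with NCAPG2, 0.83 with NCAPH, 0.81 with NCAPD3 and 0.22 with NCAPH2. The mean of the 16 E2F and G1/S genes, treated in the same way, correlated at 0.88 with NCAPD3, 0.83 with SMC2, 0.79 with NCAPG2, 0.46 with NCAPH and 0.43 with NCAPH2. Correlations of genes outside the members with these list means are not given here. The widest array, treated replicate 3 with an interquartile range of 3.68, was also the highest in the G2/M mean (0.23 above the mean of all arrays). The lowest was treated replicate 4 (-0.29), of array set 2, whose arrays were all negative. The narrowest array, DMSO replicate 1 with an interquartile range of 3.18, stood at 0.02. When the arrays were quantile normalized again, which gives each the same spread, r stayed at 0.93 for SMC2 with NCAPD3, 0.78 for NCAPD3 with NCAPG2 and 0.73 for SMC2 with NCAPG2. For NCAPH with these 3 it was then 0.40 to 0.48. The correlations with the G2/M mean, means removed, were then 0.77 for NCAPD3, 0.76 for SMC2, 0.75 for NCAPH, 0.74 for NCAPG2 and -0.08 for NCAPH2. Without both arrays numbered 3, r was 0.73 for SMC2 with NCAPD3, 0.80 for NCAPD3 with NCAPG2, 0.72 for SMC2 with NCAPG2 and, for NCAPH, 0.41 with SMC2, 0.17 with NCAPD3 and 0.13 with NCAPG2. Without DMSO replicate 1, r was 0.93 for SMC2 with NCAPD3, 0.76 for SMC2 with NCAPG2 and 0.76 for NCAPD3 with NCAPG2. For NCAPH it was then 0.74 with SMC2, 0.82 with NCAPD3 and 0.85 with NCAPG2. The looser tie of NCAPH to these 3 thus depended on that array. Beyond these values, the part of array quality in the shared pattern was not tested.

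**Figure D3:**
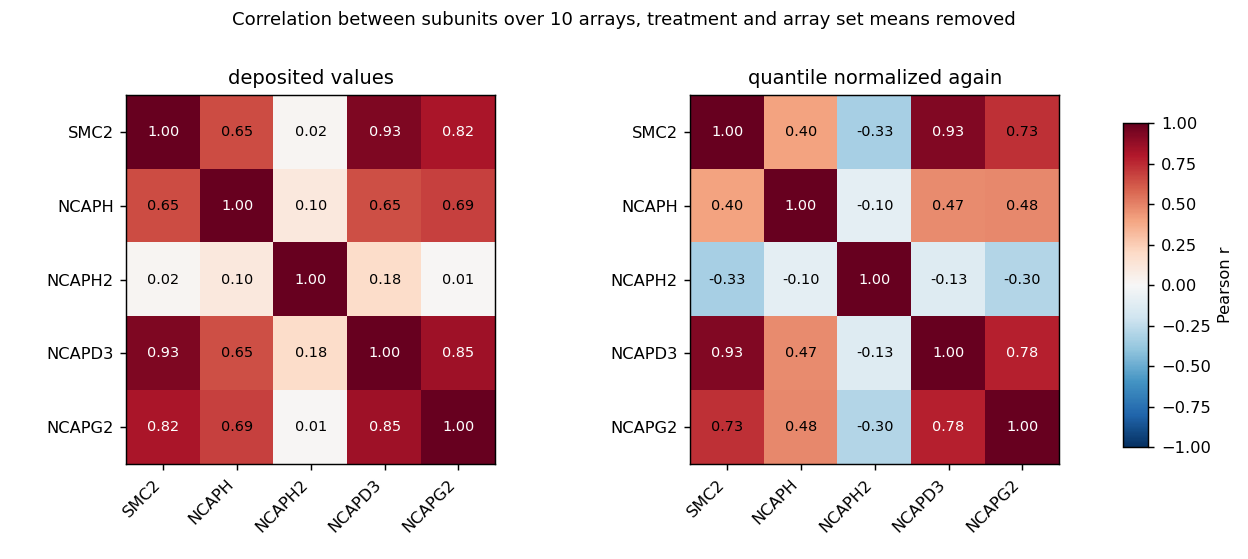
Pearson r between the 5 condensin genes over 10 arrays after treatment and array set means were removed, on the deposited values (left) and after a further quantile normalization (right). SMC2, NCAPD3 and NCAPG2 are at 0.82 to 0.93 on the left and 0.73 to 0.93 on the right, and NCAPH2 is at most 0.18 with any other.

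Because SMC2 and NCAPD3 shared their variation, their difference within an array was steadier than either gene. SMC2 minus NCAPD3 was 1.21, 1.22, 1.26, 1.19 and 1.38 on the log2 scale in replicates 1 to 5 with PD0332991, against 0.91, 0.90, 0.90, 0.80 and 0.80 in DMSO. The treated and control arrays did not overlap, overall or within either array set, and the means were 1.25 ± 0.08 with PD0332991 and 0.86 ± 0.06 in DMSO (SD, n = 5 each). The size of such a difference also reflects the probes, so it is the change between treatments, 0.39, that can be read. Of the 10 pairs among the 5 members, this was the 1 pair without overlap. The differences were formed after the values by array had been seen. Taken against SMC2 in this way, 0.510% of the other 21979 probe sets had no overlap. Taken against NCAPD3, 12.0% had none, so many genes stood apart from NCAPD3 as SMC2 did. In limma across the whole table set relative to SMC2, NCAPD3 ranked 86 by p and was not called (-0.39, unadjusted p = 0.00707, adjusted p = 1.00).

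**Figure D4:**
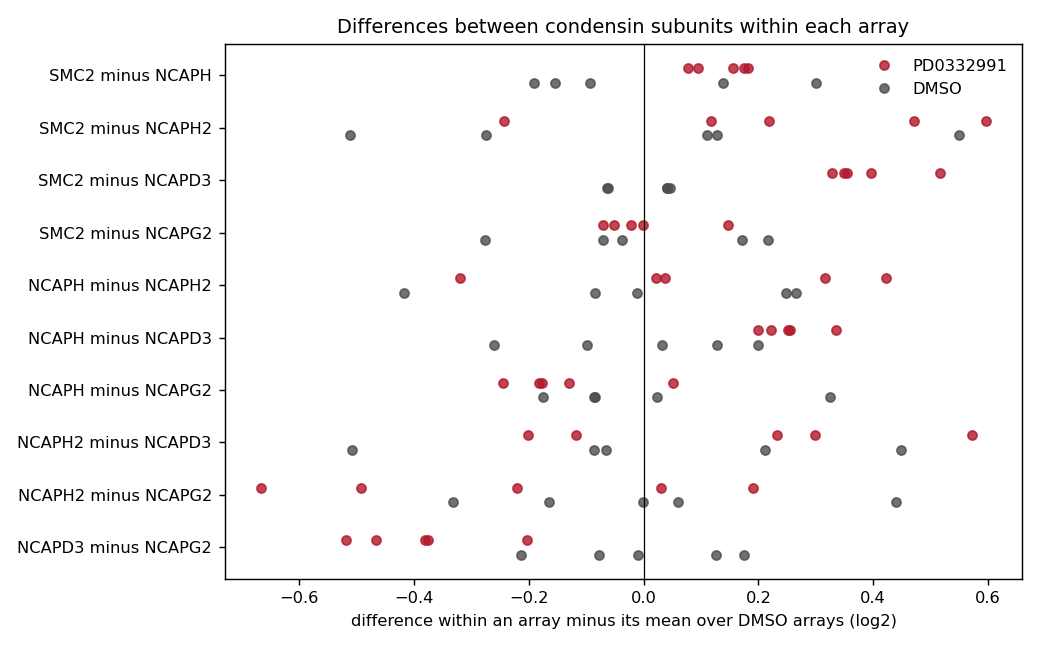
Differences between 2 condensin genes within each array (log2), less the mean of that difference over the DMSO arrays, for all 10 pairs, with PD0332991 arrays above DMSO arrays (5 points each). SMC2 minus NCAPD3 is the 1 pair in which the treatments do not overlap.

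The genes whose pattern over the 10 arrays was most like the mean of the 5 members, each centred on its own mean, were PRKAA2, a catalytic subunit of AMP-activated kinase, ATAD5, which unloads PCNA from DNA, and PRIM1, the small primase subunit, each at a Pearson r of 0.96 among 14227 genes with a median r of -0.21. Their treatment differences on the log2 scale were -0.15, -0.47 and -0.22, none past the threshold. With treatment and array set means removed, the nearest were EPB41L5, LRRC40 and ELOA, each at 0.99 where the median r was -0.26, with treatment differences of -0.01, 0.10 and 0.03.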

How the data were processed

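Total RNA of 10 U2OS cultures was measured on Affymetrix exon arrays. The table the authors deposited holds log2 values, 1 for each probe set (summarised per gene) on each array. RMA, Partek and the genome build hg18 are named in the submitters' processing notes, and versions and parameters are not given in the sources used here. RMA corrects background, normalizes between arrays and compresses fold changes of dim probe sets. The values were used as deposited. Detection calls were not used here. Precision is limited by how many arrays there were.

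Probe sets were named through the platform annotation, checked by Entrez identifier against a RefSeq gene table (GRCh38.p14): 14432 carried 1 symbol (0 changed, 28 unmatched and kept), 2408 several and 5140 none. Those with several entered the fit unnamed. Of several single-symbol probe sets the brightest stood for a gene.

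The treatment effect was fitted in R 4.3.3 by limma 3.58.1 (array set as covariate, 2-sided, Benjamini-Hochberg over 21980 probe sets, threshold 0.05), tested on simulated data. Groups follow the sample titles. The p-values set each treatment difference against the spread between arrays, moderated across all probe sets. That spread holds the variation of cultures and of arrays together. All 5 measured members were named. Of other lists, genes past the threshold or up to 3 with the smallest p were named (2 for the E2F and G2/M lists), and for likeness 3 genes by each measure. Members and lists were chosen with earlier results of these data known. Alternatives covered covariates, normalization, filters, moderation, weights, the threshold, array sets and leaving out each array. Differences within arrays, further quantile normalization of the correlations and their values without named arrays were added after the data were seen. Figures used Matplotlib 3.10.9.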

Additional observations from a re-analysis of the deposited data

How the results depend on the processing

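No condensin gene was called under any alternative run, and over 114 values of single members under alternatives, 100 kept their direction and 14 reversed, each of them SMC2 or NCAPG2, whose differences were near 0. NCAPD3 stayed negative throughout, from -0.47 with array weights (limma adjusted p = 0.0677, its lowest) to -0.33 without DMSO replicate 3, and it had an unadjusted p under 0.05 in 20 of 21 alternative fits, all but array set 1 alone. Without DMSO replicate 1 it was -0.46 (adjusted p = 0.265). NCAPH2 ran from -0.33 to -0.17 and NCAPH from -0.22 to -0.09. SMC2 was 0.011 with arrays centred on their medians and 0.055 in array set 2 alone, and NCAPG2 was 0.011 with centred arrays and 0.058 in array set 1 alone. With array weights NCAPG2 was at -0.15 and SMC2 at -0.084, their furthest from 0 in any alternative. With 1 array left out, SMC2 ran from -0.067 to 0.071 and NCAPG2 from -0.10 to 0.052. The median of the members ran from -0.22 (array set 2) to -0.09 (array set 1), and the number of negative members was 3 to 5.

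The 11 calls over all probe sets became 2 with a replicate block in place of array set, 18 with single-symbol probe sets only, 63 with array weights, 0 in either array set alone (0 in set 1, 0 in set 2), and 2 to 23 with 1 array left out (23 without DMSO replicate 1); the cause was not tested. The deviations of same-numbered arrays from their treatment and array set means correlated at -0.35 to 0.40 over all probe sets, highest for replicate 3. Taking out means of so few arrays itself lowers such correlations, so they cannot decide whether replicate numbers pair the arrays. With the replicate block NCAPD3 was at -0.39 (adjusted p = 0.569), and no member's call changed. No member has another single-symbol probe set, so that alternative was not run. Signal over background was not used here. With 5 arrays per treatment the members' intervals were as wide as -0.32 to 0.31 (NCAPG2), so small differences could be missed. The size that could be told from no difference varied by gene.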
